A study of Mus musculus with 6 samples.

Results

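Serpins are a family of proteins that mostly trap and destroy proteases, and 58 of their genes were followed here in mouse bone marrow stromal cells (BMSCs) of 2 ages. A gene was a member where the array's annotation gave a probe set a single symbol that begins with Serpin, a clade letter from a to i and a number, or is Serping1. That rule found 58 of the 30702 genes with such a probe set, 22 in clade A, 27 in clade B and 9 in clades C to I. Clade E was represented by Serpine3 alone, and other genes of that clade were not analysed here.

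A serpin presents an exposed loop that a target protease cuts, after which the serpin changes shape and locks the enzyme to itself. Clade A holds mostly secreted plasma proteins, and clade B holds serpins that stay largely inside cells and guard them against leaked granule proteases. Some members inhibit nothing, such as the collagen chaperone encoded by Serpinh1 and the hormone carriers encoded by Serpina6 and Serpina7. In mice the clade A and clade B genes have multiplied into arrays of close copies that lie side by side.

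Young cells came from mice of 3 months and aged cells from mice of 18 months, with 3 Affymetrix arrays for each age. All were Sca-1+CD29+CD45-CD11b- cells sorted from collagenase-digested femurs and grown in culture past the first passage, so the values describe expanded cells. The labels speak of biological replicates without tying each to an animal, and the spread behind each p-value is that of these 6 arrays, which may be technical. No source used here names strain, sex or a batch, and a batch that followed age cannot be told apart from it. In such bulk samples a change in the share of cells that make an RNA and a change of RNA per cell cannot be told apart either.

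Values are the authors' deposited log2 values, and array medians over transcript clusters lay between 5.39 and 5.44. A log2 value up to 7.61, the 95th percentile of 5222 negative control probe sets, is called within the negative control range here. The stromal genes Pdgfrb and Col1a1 were above it, at 11.51 and 12.43 in young cells. The stromal markers Thy1, Eng and Nt5e were within it at both ages. Of 9 measured stromal markers 5 rose and 2 fell, Nt5e (7.58 and 7.05) among the latter. Their mean lay between 9.59 and 9.62 in young and between 9.91 and 9.92 in aged arrays. All 23 measured markers of macrophages, neutrophils, mast cells, megakaryocytes and lymphocytes were within that range at both ages, among them Ptprc (CD45, 3.65 and 3.62) and Itgam (CD11b, 5.26 and 5.24). Of the 23, 4 passed the test upward (Cd14, Ly6g, Camp and Nkg7), 11 did not pass and 8 were too dim to test. Over all genes tested 18.4% were higher and 22.1% lower. The mean over the neutrophil markers lay between 5.22 and 5.43 in young and between 5.56 and 5.62 in aged arrays, and that over the macrophage markers between 5.47 and 5.50 and between 5.53 and 5.53. For mast cell and megakaryocyte markers it lay between 5.56 and 5.69 and between 5.72 and 5.79. For lymphocyte markers it lay between 5.95 and 6.13 and between 6.13 and 6.16. All 6 endothelial markers were within the negative control range, where Kdr rose by 0.69 and Tek and Vwf fell by 0.22 and 0.14, and their mean lay between 5.41 and 5.47 in young and between 5.51 and 5.55 in aged arrays. Of 4 osteoclast markers only Ctsk (cathepsin K) was above that range, and it rose from 9.07 to 10.04, while Acp5, Calcr and Ocstamp were within it and not called; the list's mean lay between 6.77 and 6.83 in young and between 7.07 and 7.13 in aged arrays. The part of other cells in the serpin differences was not tested.

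Among the serpins, the genes that rose with age came mainly from the Serpina3 group and from the clade B genes of chromosome 13. Of the 27 members bright enough to be tested, 17 were higher at 18 months (63.0%), beside 18.4% of all 20187 genes tested, and 1 was lower (3.70%), beside 22.1% (limma, Benjamini-Hochberg adjusted p under 0.05). Calls in either direction made up 40.6% of all genes tested. Members are close copies in part, and a probe set can read a neighbour's RNA, so these counts are not of independent genes. The other 31 members had a mean below the filter of 5.40. Of the 17 that rose, Serpina3e-ps and Serpinb1c passed that filter only because of their aged values. With no filter, 23 of all 58 members were higher (39.7%), beside 12.1% of 30702 genes, and 1 was lower, beside 14.4%.

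The size of the differences was counted as well. A rise of more than 1 on the log2 scale was seen in 8 of the 27, beside 2.04% of all genes tested. Serpina3e-ps, tested only because of its aged values, is among these 8 and among the 11 counted next. The difference was also tested against 0.3, slightly more than the largest shift of the array's 23 antigenomic background probes (0.29). The 5222 negative control probe sets shifted more widely, from -2.36 to 1.86. Against 0.3, 11 members were higher (40.7%), beside 5.79% of all genes, and Serpinb9b was lower, beside 4.04%. In either direction 9.83% of all genes passed that test. The aged arrays all lay above the young arrays in 26 of 58 members (44.8%), beside 19.3% of all genes, and all below them in 2 members, Serpinb9b and Serpinf2 (3.45%), beside 19.8%, or 39.1% of all genes in either direction. Of the 26, Serpina6 and others did not pass the test or were too dim for it.

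**Figure D1:**
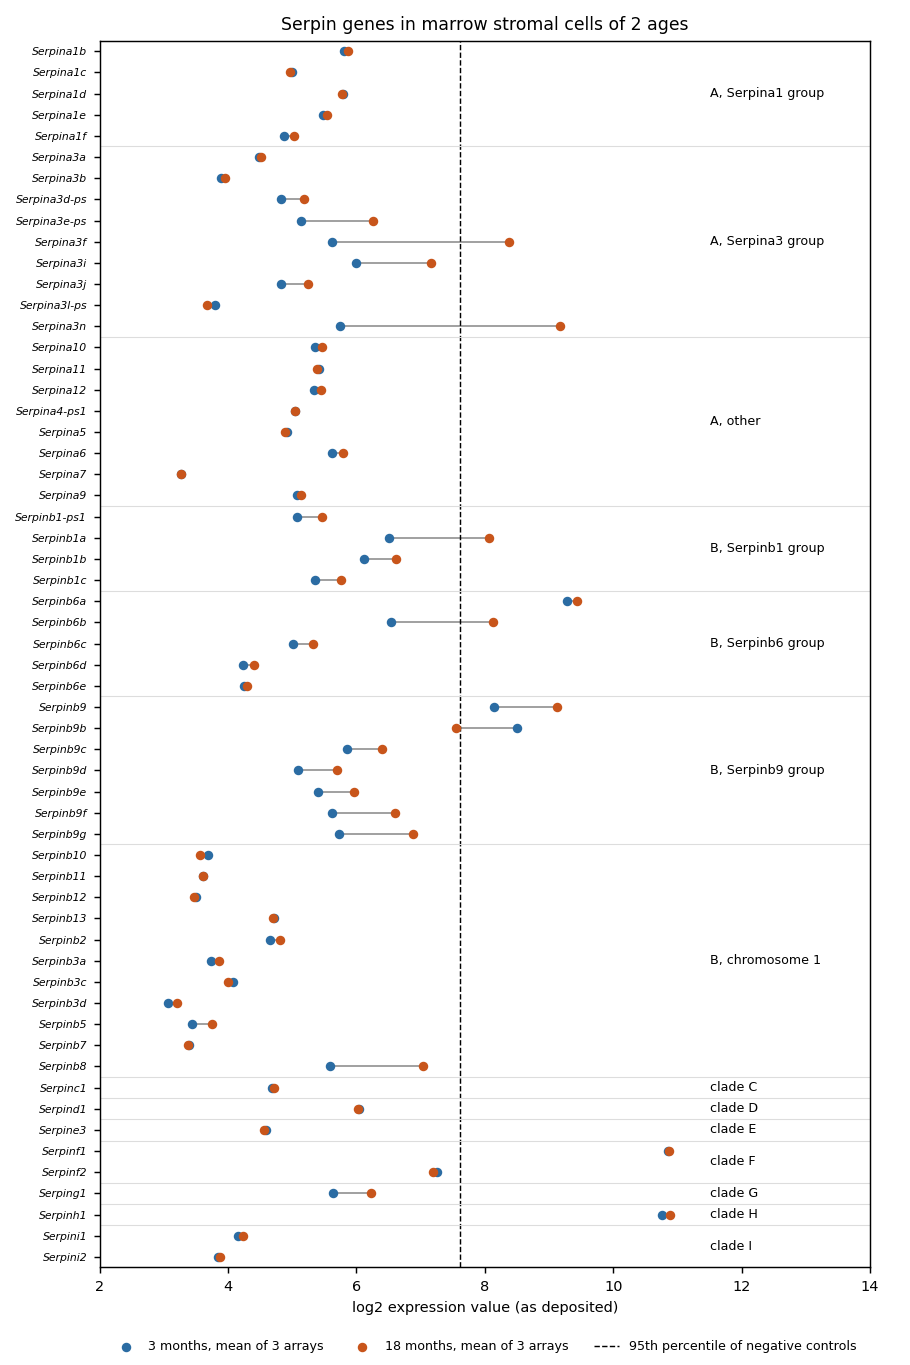
Mean deposited log2 expression value of each of the 58 serpin genes (rows, by clade and group) in arrays of 3 months (blue) and 18 months (orange), n = 3 each, with the 95th percentile of the negative controls (7.61) as a dashed line. Only 9 genes reach past that line at either age, and the longest upward shifts are those of Serpina3n and Serpina3f; positions of different genes are not comparable as amounts of RNA.

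Clades differed in how many members moved, which was counted and not tested. In clade A 4 of 10 tested members rose, in clade B 11 of 12 rose and 1 fell, and in clades C to I 2 of 5 rose. Over all genes tested 18.4% were higher and 22.1% lower. Among the members that rose, Serpina3e-ps of clade A and Serpinb1c of clade B were tested only because of their aged values. Over all members, tested or not, the median log2 difference was 0.07 in clade A, 0.31 in clade B and 0.03 in clades C to I, beside 0.01 over all genes. Only 9 members were above the negative control range at either age: Serpina3f, Serpina3n, Serpinb1a, Serpinb6a, Serpinb6b, Serpinb9, Serpinb9b, Serpinf1 and Serpinh1. Both ages were above it in 4 of these, and only for those is a fold given.

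The Serpina3 group holds the mouse relatives of antichymotrypsin, an acute-phase inhibitor of chymotrypsin-like proteases. The 250 bases before the annotated start of 3 of its members that rose are shown, because these neighbours moved together and their promoters are close copies. Capitals mark TTCNNNGAA, the palindrome bound by STAT factors. The sequences are RefSeq's, build GRCm38.p6, 5′ to 3′ on the strand of the gene. No source used here names the build behind the array's probe sets.
Serpina3f, chr12:104214294-104214543, plus strand: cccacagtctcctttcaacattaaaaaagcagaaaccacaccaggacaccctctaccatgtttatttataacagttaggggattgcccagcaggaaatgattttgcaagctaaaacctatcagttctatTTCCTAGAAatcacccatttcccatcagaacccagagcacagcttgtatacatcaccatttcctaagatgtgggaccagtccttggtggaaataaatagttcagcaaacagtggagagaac
Serpina3i, chr12:104262872-104263121, plus strand: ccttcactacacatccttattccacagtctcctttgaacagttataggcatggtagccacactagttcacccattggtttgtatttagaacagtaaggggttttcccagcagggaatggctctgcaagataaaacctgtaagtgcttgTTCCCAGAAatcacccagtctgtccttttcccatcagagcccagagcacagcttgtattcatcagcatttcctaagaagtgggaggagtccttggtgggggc
Serpina3n, chr12:104406458-104406707, plus strand: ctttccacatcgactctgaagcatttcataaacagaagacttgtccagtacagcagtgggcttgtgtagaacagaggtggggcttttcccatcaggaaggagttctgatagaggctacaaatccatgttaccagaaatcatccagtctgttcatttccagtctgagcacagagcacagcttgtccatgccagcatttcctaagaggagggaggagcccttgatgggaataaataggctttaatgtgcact

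In pairwise alignments the Serpina3f and Serpina3i windows had 177 of 219 aligned bases in common (80.8%), Serpina3i and Serpina3n 166 of 226 (73.5%), and Serpina3f and Serpina3n 159 of 232 (68.5%). Serpina3f carried the palindrome at base -121 before its start and Serpina3i at base -102. With positions counted from 1 at the palindrome's 5′ end, Serpina3f differed from Serpina3i by C5T, which lies in the free centre. Serpina3n differed from Serpina3i by C3A at the aligned place, and so it did not match the pattern there. Of all 32851 promoter windows of that length 7.02% held the palindrome, beside 9 of 56 windows of members (16.1%), some of which overlap. By gene, 7 of the 47 members with a window held it in at least 1 of theirs. Of 14 members that rose and have a window 4 did. Serpina1f, Serpina11 and Serpinb2 held it too and were not called. For Serpina3f, which has 2 annotated starts, the window farther upstream is shown. The match is a description of the letters only.

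Serpina3n, a secreted inhibitor and the best-studied member of its group, read 5.54, 5.77 and 5.94 in the 3 young arrays and 9.10, 9.26 and 9.16 in the 3 aged arrays. Every aged array lay more than 3 log2 units above every young array, and the young values were within the negative control range. The difference was 3.42 ± 0.09 (SE, n = 3 per age; limma, adjusted p = 2.2e-08), rank 21 of 20187 genes in order of rise. Serpina3f read 5.65, 5.51 and 5.70 in young and 8.41, 8.34 and 8.37 in aged arrays. Its arrays of an age were close together and the ages far apart, with a difference of 2.75 ± 0.06 (SE; limma, adjusted p = 6.5e-09) and rank 50. Because both started within the negative control range, no fold is given.

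Lower in the same group, Serpina3i went from 6.00 ± 0.14 to 7.16 ± 0.08 (SD, n = 3 each) and the pseudogene Serpina3e-ps from 5.13 ± 0.09 to 6.25 ± 0.24. Both rose, by 1.16 and 1.12 on the log2 scale, and both stayed within the negative control range. Serpina3j and Serpina3d-ps, too dim for the filter, were 0.41 and 0.37 higher and passed when no filter was used (limma, adjusted p = 0.00696 and 0.0108). Serpina3a, Serpina3b and Serpina3l-ps differed by 0.02, 0.06 and -0.13 and did not pass with no filter. The probe sets of this group may read RNA of more than 1 copy, so which copies moved is uncertain.

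Of the other 13 clade A genes, many of them known as liver products, 6 were tested and none passed (limma), with Serpina6 the only one at an unadjusted p under 0.05. This set includes the Serpina1 group, the mouse copies of the elastase inhibitor alpha-1-antitrypsin, with means from 4.88 to 5.87 over both ages. Differences in the 13 ran from -0.04 to 0.18 on the log2 scale. The highest was that of Serpina6, the carrier of corticosteroids in blood, which read 5.50, 5.69 and 5.64 in young and 5.76, 5.86 and 5.74 in aged arrays. Its arrays did not overlap between ages, yet it did not pass (limma, adjusted p = 0.0727), and it passed after quantile normalization and after median centring. Its 95% interval was 0.02 to 0.34. All 13 were within the negative control range, so these arrays say little on their levels.

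**Figure D2:**
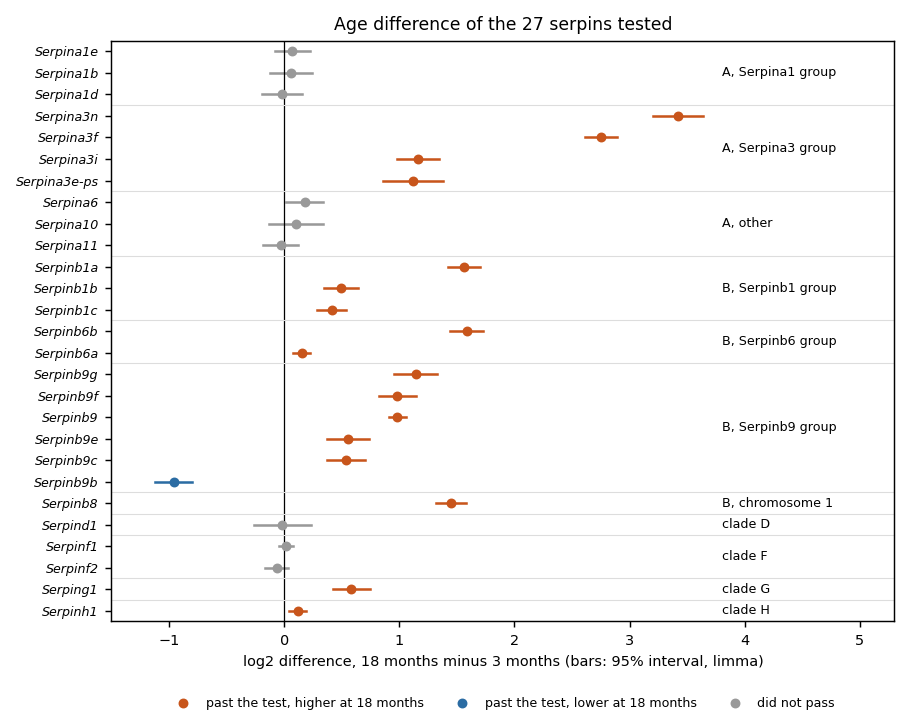
Log2 difference, 18 months minus 3 months, of the 27 serpins tested (points) with 95% intervals from limma (bars), by clade and group; orange and blue points passed the test. The points reach from -0.96 for Serpinb9b to 3.42 for Serpina3n, and the intervals of the Serpina1 group, Serpind1, Serpinf1 and Serpinf2 include 0.

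In clade B the genes of chromosome 13 form the Serpinb1, Serpinb6 and Serpinb9 groups. Of 16 such genes 11 were tested, of which 10 rose and Serpinb9b fell, beside 18.4% higher and 22.1% lower over all genes tested. The other 5 were too dim to test. Serpinb1c, among the 10, was tested only because of its aged values. The median difference of the 16 was 0.51 on the log2 scale. With no filter 13 of the 16 rose, beside 12.1% of all genes, and Serpinb6d and Serpinb6e did not pass. Probe sets of these close copies can read a neighbour's RNA, so the counts are not of independent genes. The other 11 clade B genes, on chromosome 1, had a median difference of -0.00, and only Serpinb8 among them was bright enough to be tested.

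Serpinb1a encodes an inhibitor of neutrophil elastase and cathepsin G. Its arrays read 6.49, 6.62 and 6.41 in young and 8.06, 8.04 and 8.09 in aged cells. The ages were well separated, with young values within the negative control range and aged values above it. The difference was 1.56 ± 0.06 (SE; limma, adjusted p = 1.79e-07). Its copies Serpinb1b and Serpinb1c rose by 0.49 and 0.41, within the negative control range, and neither passed against a difference of 0.3. The pseudogene Serpinb1-ps1 was below the filter and 0.39 higher, with overlapping arrays. The granule proteases Elane and Ctsg, which this inhibitor binds, read 5.49 and 5.63 and 5.27 and 5.22 in young and aged cells, within the negative control range.

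Serpinb6b, an intracellular inhibitor, behaved like Serpinb1a on these arrays. It read 6.46, 6.65 and 6.50 in young and 8.05, 8.18 and 8.14 in aged arrays, with no overlap. The difference was 1.59 ± 0.06 (SE; limma, adjusted p = 1.98e-07). Its close relative Serpinb6a, a broadly expressed inhibitor of trypsin-like and granule proteases, was above the negative control range on every array, at 9.33, 9.27 and 9.26 in young and 9.45, 9.42 and 9.44 in aged cells. Its small rise, 1.11-fold (0.15 ± 0.03, SE, limma, adjusted p = 0.00558), was lower than the largest shift of the antigenomic probes and did not pass against 0.3. Serpinb6c was 0.32 higher, below the filter, and Serpinb6d and Serpinb6e were at most 4.40 at either age.

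Serpinb9 encodes the inhibitor that protects cells from granzyme B, the death-inducing protease of killer lymphocytes. The 250 bases before its start and before that of Serpinb6a are shown because they were the only windows among the members with GAAA, any 2 bases and GAAA again, the core of an interferon response element, read here on the other strand as TTTC, any 2 bases and TTTC. Capitals mark that motif, and in Serpinb6a also a palindrome of the STAT kind that overlaps it by 3 bases.
Serpinb9, chr13:33004291-33004540, plus strand: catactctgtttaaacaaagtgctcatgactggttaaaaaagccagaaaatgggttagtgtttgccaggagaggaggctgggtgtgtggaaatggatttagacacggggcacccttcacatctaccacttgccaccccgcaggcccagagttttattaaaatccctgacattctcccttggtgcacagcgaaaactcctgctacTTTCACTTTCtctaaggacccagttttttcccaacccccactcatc
Serpinb6a, chr13:34002795-34003044, minus strand: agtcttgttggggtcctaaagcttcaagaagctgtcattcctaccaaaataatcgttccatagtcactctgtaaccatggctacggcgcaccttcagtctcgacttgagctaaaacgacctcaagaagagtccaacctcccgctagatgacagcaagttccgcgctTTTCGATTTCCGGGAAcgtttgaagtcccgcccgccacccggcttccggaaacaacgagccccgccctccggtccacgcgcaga

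The motif began at base -46 in Serpinb9 and at base -84 in Serpinb6a. On either strand 2 of 56 windows of members held it (3.57%), a share like the 2.98% of all promoter windows. Both genes rose, by 0.98 and 0.15 on the log2 scale, and a link to the motif was not tested. Serpinb6a has 2 annotated starts, and the window of the other start held neither motif.

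Serpinb9 read 8.16, 8.15 and 8.12 in young and 9.13, 9.12 and 9.13 in aged arrays. All values were above the negative control range, the arrays of an age nearly coincided, and no array crossed to the other age. The rise was 1.97-fold, a log2 difference of 0.98 ± 0.03 (SE; limma, adjusted p = 6.35e-08). Granzyme genes were dim: Gzmb read 5.20 in young and 5.74 in aged cells within the negative control range, and it was bright enough to be tested only through its aged values. Gzma read 4.58 and 4.68.

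Serpinb9b, the next gene along the chromosome and a close copy, went the other way. It read 8.61, 8.52 and 8.38 in young and 7.67, 7.48 and 7.48 in aged arrays, again with no overlap. It fell by 0.96 on the log2 scale with an SE of 0.07 (limma, adjusted p = 9.53e-06), from above the negative control range to its edge. It ranked 57 of 20187 genes from the lowest difference. The call and its direction held after quantile normalization, median centring and centring on the negative controls, with differences of -0.99, -0.94 and -0.61.

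The remaining copies of the group rose from within the negative control range. Serpinb9g and Serpinb9f were higher by 1.14 and 0.98, and Serpinb9e and Serpinb9c by 0.56 and 0.54, of which the last pair did not pass against 0.3. Serpinb9d had a mean of 5.39, just under the filter, and was 0.61 higher with no overlap. These copies are alike in sequence, and how far each probe set reads Serpinb9 itself was not tested.

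**Figure D3:**
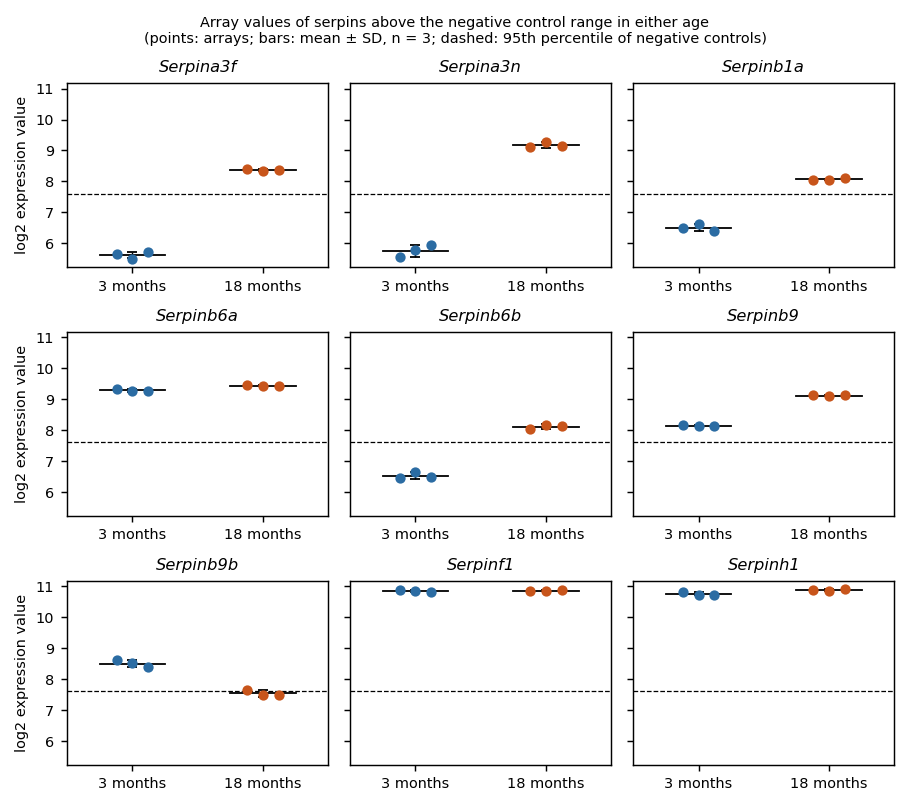
Array values (points) with mean and SD (bars, n = 3) of the 9 serpins above the negative control range at either age, on 1 log2 scale, with the 95th percentile of the negative controls (7.61) dashed. Serpina3f, Serpina3n, Serpinb1a and Serpinb6b cross the line upward, Serpinb9b crosses it downward, and Serpinb6a, Serpinf1 and Serpinh1 stay nearly level.

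On chromosome 1 the clade B genes, which include squamous epithelial serpins such as Serpinb5 (maspin), Serpinb12 and Serpinb13, were dim apart from Serpinb8. Serpinb8, an intracellular inhibitor, read 5.64, 5.57 and 5.56 in young and 7.10, 7.03 and 6.97 in aged arrays. The ages did not overlap, and the difference of 1.45 ± 0.06 (SE; limma, adjusted p = 1.9e-07) lay wholly within the negative control range. Serpinb2, the plasminogen activator inhibitor of macrophages, was at 4.65 and 4.80. Serpinb5 was at 3.44 and 3.75 and passed only with no filter (limma, adjusted p = 0.0386). Apart from Serpinb8 and Serpinb5 the genes of this cluster, Serpinb2 included, differed by -0.13 to 0.15.

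Gene order showed where the differences lay. In the order of the RefSeq assembly GRCm38.p6, the genes of the chromosome 12 cluster from Serpina10 to Serpina3b differed by at most 0.18, while Serpina3d-ps, Serpina3e-ps, Serpina3f, Serpina3i and Serpina3j, which follow one another among the measured genes, had differences of 0.37, 1.12, 2.75, 1.16 and 0.41. Serpina3d-ps and Serpina3j were below the filter. Serpina3l-ps comes next, at -0.13 and also below the filter, and Serpina3n, at 3.42, closes the cluster. Among the 5 measured genes on each side of it 4 rose and 4 fell, and of the neighbouring relatives Ifi27l2a and Ifi27, both named for induction by interferon, the first rose by 2.63 and the other fell by 0.64. Beside the chromosome 13 cluster 5 of 10 flanking genes rose, 3 did not pass and 2 were too dim to test, with Foxc1, a transcription factor of mesenchyme, up by 1.25 and Tubb2a, a tubulin, up by 0.81. Beside the chromosome 1 cluster 5 of 10 fell, 1 did not pass and 4 were too dim to test. The median difference was 0.09, 0.30 and -0.09 in the 3 sets of flanking genes, beside 0.01 over all genes. Of all genes tested 18.4% were higher and 22.1% lower. Each set holds only 10 genes and was added after the values were seen, so the counts are no result about the regions. On chromosome 13 some genes beside the serpins rose too.

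**Figure D4:**
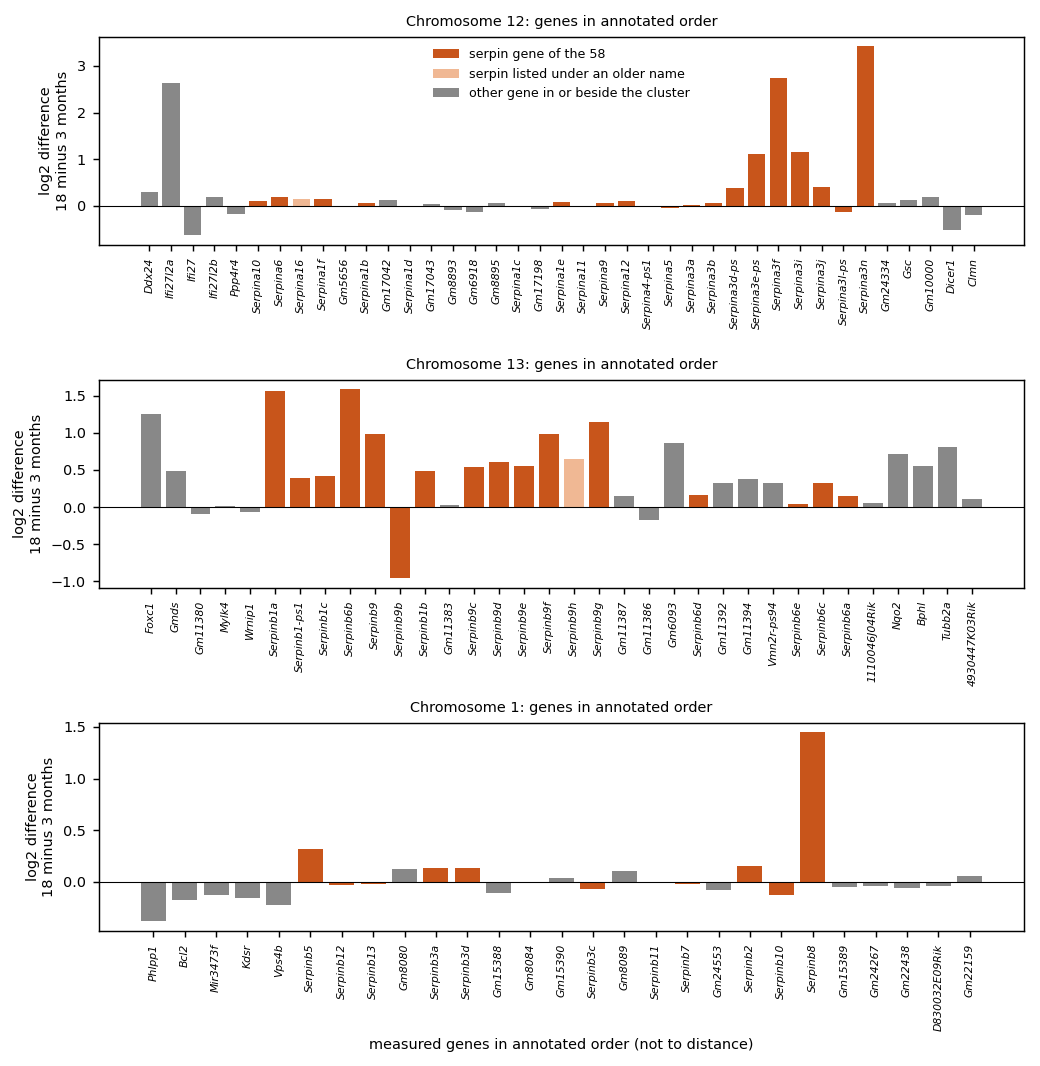
Log2 difference, 18 months minus 3 months, of measured genes in annotated order through the serpin clusters of chromosomes 12, 13 and 1 with 5 flanking genes per side (bars; orange, serpins; pale orange, serpins that the annotation lists under an older name; grey, other genes). On chromosome 12 the tall bars are those of Serpina3 genes at one end and of Ifi27l2a (2.63) before the other; on chromosome 13 Serpinb9b at -0.96 is the lowest bar, and on chromosome 1 Serpinb8 (1.45) is the tallest; vertical scales differ between panels.

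Outside clades A and B 5 of 9 serpins were tested, of which 2 rose and 3 did not pass, beside 18.4% of all genes higher. At both ages 7 of the 9 were within the negative control range. Serpinf1, which encodes the secreted antiangiogenic factor PEDF, read 10.87, 10.84 and 10.83 in young and 10.87, 10.85 and 10.87 in aged arrays. Its ages overlapped, and the difference was 0.02 with a 95% interval of -0.05 to 0.08 (limma, adjusted p = 0.694). This rests on the authors' scaling. The negative controls themselves were lower in aged arrays (median difference -0.26). The 23 antigenomic background probes were instead all higher in aged arrays, by 0.006 to 0.29 (median difference 0.11). Centring the arrays on the negative controls moved the median difference of genes tested from 0.01 to 0.37. Serpinf1 then differed by 0.37 and passed (limma, adjusted p = 3.95e-05), as did 17541 of 20187 genes.

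Serpinh1 encodes the chaperone of procollagen in the endoplasmic reticulum. It read 10.82, 10.74 and 10.73 in young and 10.88, 10.85 and 10.91 in aged arrays. The ages did not overlap but lay close, at 1.08-fold (0.12 ± 0.03, SE; limma, adjusted p = 0.0236). This call was lost without the intensity trend, against 0.3, and without the second young, the first aged or the third aged array (limma, adjusted p from 0.0028 to 0.095 over the 6 fits that leave 1 array out). Of 14 collagen genes and genes of collagen modification, folding and export 8 rose and 5 fell, beside 18.4% higher and 22.1% lower over all genes tested. Among the 14 the collagen genes Col3a1, Col1a1 and Col5a1 were up 3.61-fold, 1.73-fold and 1.71-fold, and P4ha3, a subunit of a prolyl hydroxylase that acts on collagen, 4.81-fold. Those that fell were P4ha1, Plod2, P3h1, Ppib and Mia3, with log2 differences from -0.37 to -0.12, and they were picked out by their values.

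Serping1 encodes C1 inhibitor, the brake on the first proteases of the classical complement pathway. It read 5.55, 5.62 and 5.75 in young and 6.21, 6.15 and 6.30 in aged arrays, without overlap. The rise of 0.58 ± 0.07 (SE; limma, adjusted p = 0.000181) lay within the negative control range at both ages. Its target proteases C1ra and C1s1 rose 2.50-fold and 2.66-fold, above that range.

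The remaining members, circulating and neural serpins, were either not past the test or below the filter. Serpinf2, the plasmin inhibitor antiplasmin, was at 7.25 ± 0.04 and 7.19 ± 0.03 (SD, n = 3 each), a difference of -0.06 (limma, adjusted p = 0.299), although its arrays did not overlap. Serpind1 (heparin cofactor II) was at 6.04 and 6.02. Below the filter were Serpinc1 (antithrombin) at 4.68 and 4.72, Serpini1 (neuroserpin) at 4.15 and 4.23, Serpini2 at 3.84 and 3.87, and Serpine3 at 4.59 and 4.56. Centred on the negative controls, Serpinf2 and Serpind1 were instead higher, by 0.29 and 0.34.

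Genes of the proteases and other inhibitors around the serpins were counted too, against shares of 18.4% higher and 22.1% lower over all genes tested; a list with calls near those shares is no result about the list. Of 11 measured genes listed under plasminogen activation 7 rose and 2 fell, a median difference of 0.29. That list also holds Thbd and Procr, which belong to the protein C pathway. Plat, the tissue plasminogen activator, was 1.97-fold higher, S100a10, part of a plasminogen receptor, rose by 0.73 within the negative control range, and Plaur (urokinase receptor) and Procr (protein C receptor) fell by 0.75 and 0.44. Of 24 measured serine protease genes and relatives 20 were tested, of which 9 rose and 11 did not pass (median of the 24, 0.13). Gzmb, among the 9, was tested only because of its aged values. Besides C1ra and C1s1 the 9 include Masp1, of the lectin pathway, up 1.55-fold, and Hgf, a growth factor built like a protease, up by 1.31 within the negative control range.

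Of 22 measured genes listed as secreted inhibitors outside the serpin family 19 were tested, of which 7 rose and 1 fell (median of the 22, 0.05). Timp4, among the 7 and within the negative control range, was tested only because of its aged values. Cst3 (cystatin C, an inhibitor of cathepsins) was 3.07-fold higher, Timp1 1.87-fold and Itih2 1.80-fold. Pcolce, which enhances a procollagen protease and so does not do what the list's name says, was 1.93-fold higher. Timp3, an inhibitor of metalloproteinases, was the one that fell, by 0.31 on the log2 scale.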

How the data were processed

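Each of 6 arrays has 72688 probe sets with log2 values, as the authors deposited them. MAS5 is named in the submitters' processing notes, with no version, and no source used here gives background, scaling or summarisation. Such arrays have no read depth, so their number limits the precision. Sample titles gave the age and the replicate number.

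Probe sets with 1 gene symbol (31258) were kept after older symbols were updated with RefSeq (GRCm38.p6). Another 1492 had several symbols. Each of 30702 genes was read from its brightest probe set by mean over the arrays. Among serpins, Serpina1c and Serpinh1 had 2. Members were found by the symbol in the platform annotation as given. Genes with a mean under 5.40, the median of transcript clusters, were left out of the test.

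Aged and young arrays were compared by limma 3.58.1 in R 4.3.3 (lmFit, eBayes with an intensity trend), with Benjamini-Hochberg adjustment over 20187 genes. With 3 arrays a group, the smallest two-sided p of an exact permutation test is 0.1. Differences are aged minus young. The fit was tested on simulated data. Figures were drawn with matplotlib 3.10.9.

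The members and gene lists were chosen with earlier results of these data known. Named are members past the test or above the negative control range, the largest difference among the rest of each clade, and up to 4 genes per partner list by smallest p. Flanking genes were added after the values were seen. Motifs were searched in 250 bases before each of 32851 annotated starts.

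Alternatives were 3 scalings, 2 filters, the mean of a gene's probe sets, no intensity trend, a test against 0.3, the replicate number as a block, and each array left out in turn. Correlations of same-numbered arrays' deviations were -0.05, 0.07 and 0.02, so the numbers were not taken to pair arrays.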

Additional observations from a re-analysis of the deposited data

Results flagged for a closer look

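A second probe set of Serpinh1, not used above because its mean was lower, was also above the negative control range. Young arrays averaged 8.28 ± 0.15 and aged arrays 8.48 ± 0.04 on the log2 scale (SD, n = 3 each), a difference of 0.20, and they overlapped. What this probe set reads was not tested.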

How the results depend on the processing

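The 17 serpins that rose and the 1 that fell were all still called, in the same direction, after quantile normalization, median centring, no filter and the mean of probe sets, with 19, 19, 24 and 18 members called. Without the intensity trend 17 were called, and Serpinh1 was lost. With the replicate block 17 members and 7728 genes were called, and Serpinh1 was again the member lost. Leaving out 1 array gave 17 to 19 members and 6715 to 9297 genes. The stricter filter tested 11 members and called 9, of which 8 were higher. Against a difference of 0.3, 1985 genes passed, 1169 higher and 816 lower, and 11 members were higher; Serpinb1b, Serpinb1c, Serpinb6a, Serpinb9c, Serpinb9e and Serpinh1 were lost. Centring on the negative controls called 17541 genes, 16775 higher and 766 lower, where the main scaling gave 3724 and 4471. It called all 27 members tested, 26 higher and Serpinb9b lower, and turned Serpinf2 to 0.29 and Serpind1 to 0.34. Serpind1, not called, also changed sign after median centring (0.0024) and in 2 of the fits without 1 array, which spanned -0.12 to 0.10. Young values within the negative control range leave the true size of most rises unknown.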

Other observations

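A pair of serpin genes carried older names in the platform annotation and so were not among the 58. Serpinb9h, listed as Gm11397, lies within the chromosome 13 cluster and rose from 5.17 ± 0.02 to 5.82 ± 0.14 (SD, n = 3 each), a log2 difference of 0.65 (limma, adjusted p = 0.000152). It was bright enough to be tested only through its aged values. Serpina16, listed as Gm46, was at 4.65 and 4.79 and below the filter. A probe set listed for both Serpina1a and Serpina1d was at 5.21 and 5.14. The noncoding gene Gm6093, chosen after its value was seen, lies between Serpinb9g and Serpinb6d in the annotated order and rose from 5.57 to 6.43 (limma, adjusted p = 6.45e-06). All of these values are within the negative control range.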
